A study of Homo sapiens with 12 samples.

Results

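RNA-seq counts were examined for 10 mucin genes, MUC1, MUC3A, MUC4, MUC5AC, MUC5B, MUC12, MUC13, MUC15, MUC16 and MUC20, in a pair of prostate cancer cell lines in which MUC1 was silenced. The genes were chosen by name, and all 10 were found by Ensembl identifier among the 58037 identifiers in the counts. DU-145 cells come from a prostate carcinoma and are androgen-independent. LNCaP-AI is an androgen-independent derivative of the LNCaP line, selected by long culture of C4-2B cells without androgen. Both carried a doxycycline (DOX)-inducible MUC1 short hairpin RNA (tet-MUC1shRNA), and LNCaP-AI was kept in phenol red-free medium with charcoal-stripped serum. Each line was treated for 7 days with vehicle or with 500 ng/ml DOX, in 3 samples per group and 12 samples in all. The labels of the samples call the groups control shRNA and MUC1 shRNA, while the design text and the methods describe the same tet-MUC1shRNA cells without and with DOX. Cells with a control hairpin and DOX were not analysed here, so in these counts the part of DOX itself and that of the hairpin cannot be told apart. For the C-terminal part of the MUC1 protein, the paper reports immunoblots of LNCaP-AI. There DOX lowered it with the MUC1 hairpin and not with a control hairpin. The paper also shows immunoblots of DU-145 cells carrying either hairpin, without and with DOX.

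Mucins are large proteins whose serine- and threonine-rich repeats are covered with O-linked sugars. The gel-forming mucins, among them MUC5AC and MUC5B, are secreted and build mucus, whereas MUC1, MUC3A, MUC4, MUC12, MUC13, MUC15, MUC16 and MUC20 are anchored in the membrane. MUC1 is made as a single protein that is cleaved into an N-terminal subunit (MUC1-N), which holds the repeats, and a membrane-spanning C-terminal subunit (MUC1-C). MUC1-C carries signals from the cell surface and is studied as an oncogenic protein in carcinomas. MUC16 is the source of the CA125 tumor marker.

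MUC1 lies on the minus strand at chr1:155185824-155192916 of GRCh38 and has 2401 bases of annotated exon in GENCODE release 44. Its protein repeat is written in DNA units of 60 bases. The stretch from 155188506 to 155192056 was cut from end to end into 59 units of this length. The cuts were not realigned along the repeat, so copies out of step count as different, and 47 units were distinct as cut. The commonest occurred 8 times as cut and 15 times in the locus at any offset. The commonest unit and a variant are shown because most of the repeat lies outside the exons on which MUC1 reads would be counted. Capitals mark the 4 bases at which the variant, at chr1:155190137-155190196, differs from the commonest unit, at chr1:155190017-155190076. Both are read 5′ to 3′ on the minus strand.
commonest MUC1 repeat unit: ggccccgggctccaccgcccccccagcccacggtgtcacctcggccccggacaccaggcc
variant MUC1 repeat unit: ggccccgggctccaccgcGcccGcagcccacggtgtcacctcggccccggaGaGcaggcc

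Of the 3475 repeat bases, 305 (8.78%) lay in an annotated exon, and 53 of the 59 units held no exonic base. Reads from the rest of the repeat would not be counted on exons of this annotation, and the annotation release behind the deposited counts may differ.

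MUC1, MUC3A and MUC16 were the members with enough reads to test in DU-145 cells, and the 250 bases before their RefSeq start sites (GRCh38.p14) are shown so that the sequences in front of these genes can be compared. Capitals mark matches, on either strand, to the E-box CANNTG, the GC box GGGCGG and the TATA box TATAAA. The windows are chr1:155192916-155193165 on the minus strand for MUC1, chr7:100949284-100949533 on the plus strand for MUC3A and chr19:9010410-9010659 on the minus strand for MUC16.
MUC1: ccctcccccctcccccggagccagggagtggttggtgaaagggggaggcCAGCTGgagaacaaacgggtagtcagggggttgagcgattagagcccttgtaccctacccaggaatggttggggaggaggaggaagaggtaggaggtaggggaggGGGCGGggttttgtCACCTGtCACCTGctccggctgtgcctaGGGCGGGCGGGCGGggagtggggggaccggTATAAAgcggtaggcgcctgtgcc
MUC3A: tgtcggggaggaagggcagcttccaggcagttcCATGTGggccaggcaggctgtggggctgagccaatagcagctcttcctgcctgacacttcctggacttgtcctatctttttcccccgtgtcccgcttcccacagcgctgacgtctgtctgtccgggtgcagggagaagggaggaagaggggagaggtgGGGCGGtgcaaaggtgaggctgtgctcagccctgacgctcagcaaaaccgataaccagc
MUC16: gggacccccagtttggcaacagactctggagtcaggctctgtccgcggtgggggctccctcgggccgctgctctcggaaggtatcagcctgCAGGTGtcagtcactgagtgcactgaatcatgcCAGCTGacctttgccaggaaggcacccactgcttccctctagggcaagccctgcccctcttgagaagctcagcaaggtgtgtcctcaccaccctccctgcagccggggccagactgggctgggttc

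The MUC1 window held 3 E-boxes, 4 GC boxes, of which 3 overlap, and a TATA box 24 bases before the start. MUC3A had 1 E-box and 1 GC box. MUC16 had 2 E-boxes and no match to the GC or TATA box in this window. Among 35116 RefSeq promoter windows of 300 bases, 68.7% held an E-box, 45% a GC box and 11.5% a TATA box. The palindromic E-box CACGTG and the GAS element TTCNNNGAA, held by 7.26% and 7.66% of them, were also searched on both strands and had no match in these 3 windows. Every CACGTG would also be a CANNTG. RefSeq lists a second start for MUC1 and for MUC16, not shown here. These matches describe the letters and say nothing about binding.

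Total counts ranged from 10423437 to 13544153 in DU-145 and from 16569613 to 26961777 in LNCaP-AI samples. Levels are given as CPM, counts divided by the TMM-scaled library size. At these depths 3 counts, taken as the floor of a single sample, corresponded to 0.236 to 0.304 CPM in DU-145 and 0.104 to 0.171 CPM in LNCaP-AI samples. Of 6 markers of the LNCaP lineage, KLK2, KLK3, FOLH1 and HOXB13 were without a count in DU-145 and had 1478 counts or more in every LNCaP-AI sample. VIM was high in DU-145 samples, with 6283 to 11017 counts. KRT5, listed as a DU-145 marker, was at 0 to 6 counts there. The LNCaP-AI samples also divided in a way that their treatment did not give. A first principal component, which took 83.3% of their variance, placed vehicle 2, vehicle 3 and DOX 1 far from vehicle 1, DOX 2 and DOX 3. Whether samples were mixed or exchanged was not tested, and this bears on every LNCaP-AI value. The former 3 samples carried 1617 to 2412 counts of CAV1 and 789 to 1434 of KRT5, against 1 to 6 and 0 to 1 in the latter. Of the DU-145 markers, all 8 had over 10 counts in these 3 samples and 4 did in the others. Their summed levels were 896 to 994 CPM and 173 to 379 CPM. The 8 did not move together. EGFR, CAV1, CD44, ANXA1, S100A4 and KRT5 were higher in each of these 3 samples than in the others. VIM and CDKN2A were not. VIM had 509 to 1280 counts in these 3 samples and 605 to 993 in the others. CDKN2A had 192 to 357 and 288 to 334 counts, against 2234 to 2807 in DU-145. By limits of at least 20 counts in each of vehicle 2, vehicle 3 and DOX 1 and at most 5 in each of the others, 415 of 58037 genes followed the division. None of the 10 mucin genes did. Genes with the reverse pattern were not counted.

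MUC1, the target of the hairpin, fell with DOX in both lines. In DU-145 cells it had 74, 60 and 59 counts with vehicle and 3, 3 and 3 with DOX. This was 5.70 ± 0.643 CPM (SD, n = 3) and 0.262 ± 0.0237 CPM (SD, n = 3). The DOX samples thus sat at the floor, and the groups lay far apart. The level fell by 4.39 on the log2 scale (SE 0.315, quasi-likelihood test in edgeR, adjusted p = 1.37e-09 by Benjamini-Hochberg over 13644 genes). As a ratio of summed counts, MUC1 was 21.8-fold lower with DOX, with a 95% interval of 11.3 to 48.4 that covers counting error only.

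In LNCaP-AI cells MUC1 had 36, 25 and 52 counts with vehicle and 8, 6 and 3 with DOX. These were 1.58 ± 0.235 and 0.279 ± 0.0957 CPM (SD, n = 3 each). The lowest vehicle sample stood well above the highest DOX sample. The level fell by 2.50 on the log2 scale (SE 0.330, adjusted p = 0.0139, edgeR), and summed counts were 5.69-fold lower (95% counting interval 3.40 to 10.1). The call depended on which samples were present. It was kept without vehicle 1 (adjusted p = 0.0224) or DOX 1 (0.0164) and lost without vehicle 2 (0.0562), vehicle 3 (0.0587), DOX 2 (0.0820) or DOX 3 (0.0590). In the latter 4 fits at most 1 of all 16030 genes was called, and over all 6 fits the change in MUC1 stayed between -2.65 and -2.22. The difference was also present on each side of the division of the samples. Within vehicle 1, DOX 2 and DOX 3 the difference was -2.59, and within the other 3 samples it was -2.19, both without a test. MUC1 passed the minimum of 10 counts in 3 samples through the vehicle samples alone. In bulk RNA, fewer cells with MUC1 and less MUC1 RNA per cell cannot be told apart.

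Of the 6 LNCaP lineage markers, KRT18 alone was tested in DU-145 and rose with DOX (background 51.5%), and it was also higher in DU-145 than in LNCaP-AI with vehicle, by 0.46 on the log2 scale. In LNCaP-AI 3 of 6, KLK2, KLK3 and TMPRSS2, rose (background 12.7%), and all 3 calls were lost without vehicle 2, vehicle 3, DOX 2 or DOX 3. The summed level of the 6 was 328 to 351 CPM with vehicle and 700.0 to 762 CPM with DOX in DU-145, nearly all of it KRT18, where KLK2, KLK3, FOLH1 and HOXB13 stayed at 0. In LNCaP-AI it was 1291 to 1768 and 2321 to 2830 CPM, and the part of these shifts in the mucin values was not tested. Annotated overlap with other genes touched MUC1 little. Of its exon bases, 48 (2.0%) are shared on the same strand with a read-through gene, which had 0 counts in every sample. MUC1 made up 60.8 to 67.9% of the summed counts of the 10 mucins in DU-145 vehicle samples and 7.69 to 11.5% in the DOX samples. In LNCaP-AI the shares were 32.7 to 48.1% and 5.36 to 14.8%.

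**Figure D1:**
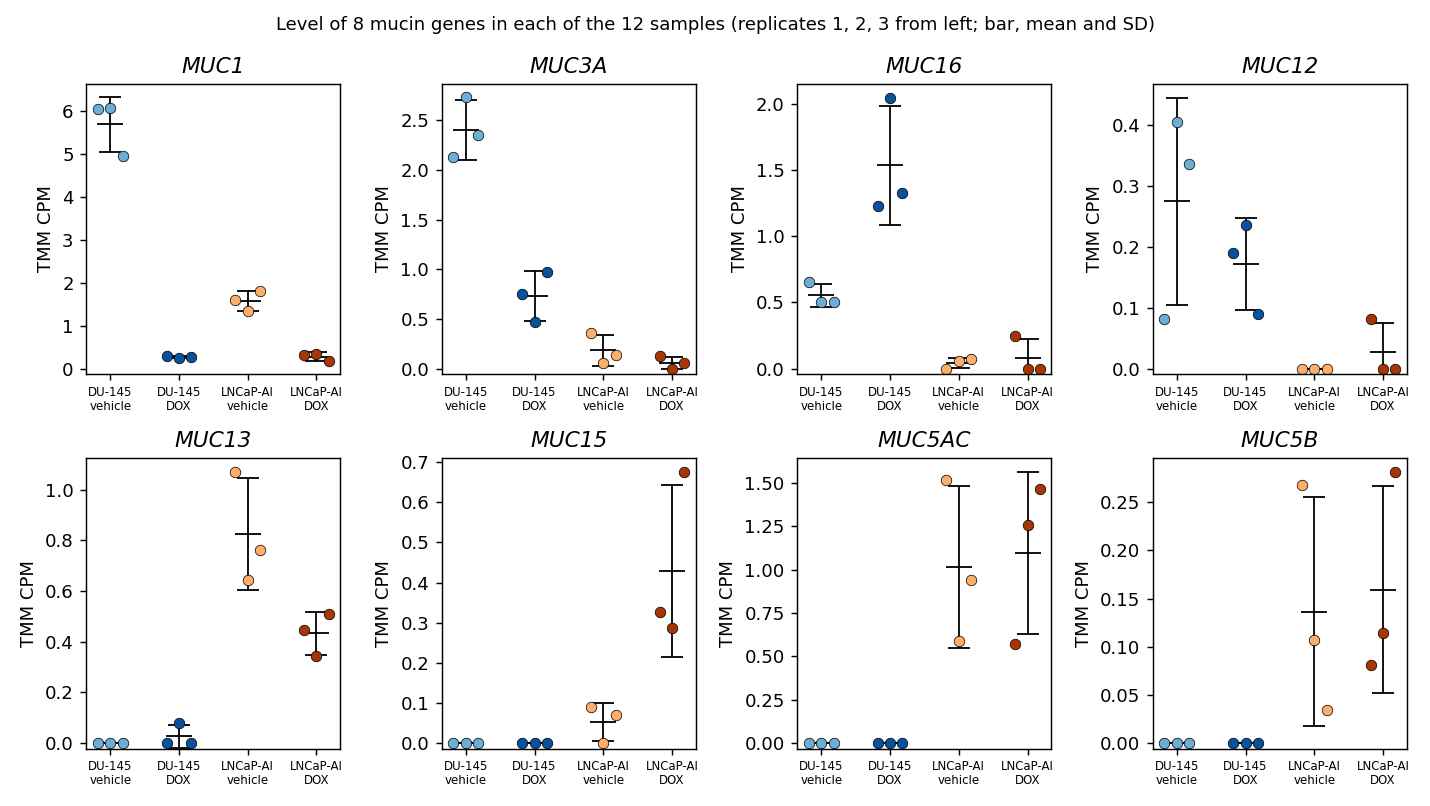
Level in TMM CPM (linear axis, scaled per gene) of the 8 mucins with any count, for each sample (points, replicates 1 to 3 from the left) with the mean and SD of each group of 3 (horizontal and vertical bars). MUC1 is lower with DOX in both lines, MUC3A, MUC12 and MUC16 are mainly DU-145 signals, and MUC5AC, MUC5B, MUC13 and MUC15 are mainly LNCaP-AI signals.

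Besides MUC1, the mucins detected in DU-145 cells were membrane-anchored, and MUC3A and MUC16 moved in opposite directions with DOX. MUC3A, an intestinal-type mucin with EGF-like domains, at chr7:100949534-100968347, had 26, 27 and 28 counts with vehicle and 8, 6 and 11 with DOX. Each DOX sample had less than any vehicle sample, and the level fell by 1.70 on the log2 scale (SE 0.327, adjusted p = 0.000244, edgeR). MUC16, at chr19:8848844-9010390, had 8, 5 and 6 counts with vehicle and 13, 26 and 15 with DOX. Here every DOX sample was higher, by 1.47 on the log2 scale (SE 0.378, adjusted p = 0.00315, edgeR). Summed counts of MUC16 were 2.79-fold those with vehicle (95% counting interval 1.63 to 4.99). With all 12 samples in a single fit the MUC16 value was 1.45 and its adjusted p was 0.0880. All these counts were low beside MUC1 with vehicle.

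MUC12, a membrane mucin of the gut at chr7:100969565-101018939, had 1, 4 and 4 counts with vehicle and 2, 3 and 1 with DOX in DU-145 cells, so the groups overlapped (ratio of summed counts 0.655, 95% counting interval 0.192 to 2.06). MUC13 had a single count in DOX replicate 2. MUC4, MUC5AC, MUC5B, MUC15 and MUC20 had 0 counts in all 6 samples, which allows up to 3 counts in the sum over a group. Of the 10 members, 3 had at least 10 counts in 3 samples and were tested, and all 3 were called (1 higher, 2 lower), where 51.5% of all genes tested were called, 26.3% higher and 25.3% lower. MUC1 passed this minimum through the vehicle samples alone and MUC16 through the DOX samples alone, so their count is a description. Without the minimum, MUC1, MUC3A and MUC16 were again called (adjusted p = 1.20e-36, 5.82e-06 and 0.00171, edgeR) and MUC12 and MUC13 were not (adjusted p = 0.692 and 0.556).

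LNCaP-AI cells held another set of mucins, among them the gel-forming MUC5AC and the membrane mucin MUC13, and MUC15 in the DOX samples. MUC5AC, the main mucin of airway and stomach surface cells, at chr11:1157953-1201138, had 34, 11 and 27 counts with vehicle and 14, 22 and 26 with DOX. The samples overlapped widely, at 1.01 ± 0.469 and 1.10 ± 0.469 CPM (SD, n = 3 each), and the difference was 0.07 on the log2 scale (SE 0.491, adjusted p = 0.936, edgeR). The 95% counting interval of the ratio ran from 0.705 to 1.43. With the side of the samples as a covariate the sign turned, to -0.31 (adjusted p = 0.425).

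MUC13, a mucin of intestinal and tracheal epithelium at chr3:124905442-124953819, had 24, 12 and 22 counts with vehicle and 11, 6 and 9 with DOX. In CPM the vehicle samples, at 0.826 ± 0.221, did not overlap the DOX samples, at 0.433 ± 0.0834 (SD, n = 3 each). The difference of -0.95 on the log2 scale did not pass the test (SE 0.331, adjusted p = 0.113, edgeR). With the side of the samples as a covariate it was -1.05 with adjusted p = 0.0235, but these sides were drawn from the same counts.

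MUC15, a membrane mucin at chr11:26559032-26572263, had 2, 0 and 2 counts with vehicle and 8, 5 and 12 with DOX, too few for the main test. Every DOX sample was higher, and the ratio of summed counts was 7.31 (95% counting interval 2.52 to 28.9). Without the minimum on counts the difference was 2.72 on the log2 scale and did not pass (adjusted p = 0.0740, edgeR). It had the same direction within both sides of the LNCaP-AI samples, at 2.08 and 2.84 on the log2 scale with 0.5 counts added.

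MUC5B, the other gel-forming member, had 6, 2 and 1 counts with vehicle and 2, 2 and 5 with DOX, and its ratio was 1.17 (95% counting interval 0.411 to 3.32). MUC3A had 8, 1 and 4 counts with vehicle and 3, 0 and 1 with DOX, with a ratio of 0.360 (95% counting interval 0.0854 to 1.16). Neither separated the groups. MUC16 had counts in vehicle 2, vehicle 3 and DOX 1 alone, at 1, 2 and 6, which are the 3 samples with KRT5 and CAV1. MUC12 had 2 counts, both in DOX 1. The part of the division in these counts was not tested. Of 3 members tested, MUC1 alone was called, lower, where 12.7% of all genes were called, 7.22% higher and 5.52% lower.

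**Figure D2:**
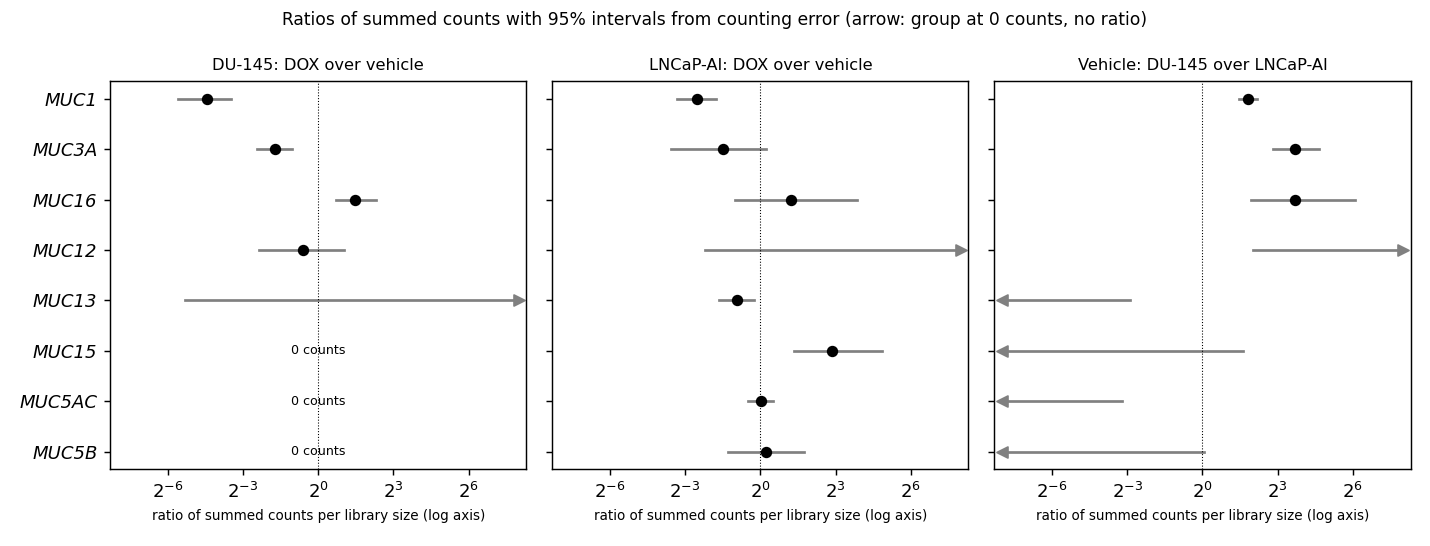
Ratio of summed counts per library size for 8 mucins (points, log axis) with 95% intervals from counting error (lines), for DOX over vehicle in each line and for DU-145 over LNCaP-AI with vehicle. An arrow marks a gene with 0 counts in a group, which has no ratio. MUC1 lies at 0.0459 in DU-145 and 0.176 in LNCaP-AI, and MUC16 in DU-145 and MUC15 in LNCaP-AI lie above 1.

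MUC4 and MUC20 had 0 counts in all 12 samples. MUC4, a large ERBB2-binding mucin, and MUC20, a mucin that binds the MET receptor, lie near each other on chromosome 3, at 195746765 to 195811973 and 195720884 to 195741123. No annotated exon of another gene overlaps MUC4. For MUC20, 1851 of 6837 exon bases (27.1%) are shared on the same strand with the noncoding gene MUC20-OT1, which had 1 to 16 counts, and how the authors assigned shared reads is not given in the sources used here. MUC20-OT1 in LNCaP-AI had 13, 16 and 16 counts with vehicle and 10, 6 and 3 with DOX, a ratio of 0.494 (95% counting interval 0.273 to 0.861). Opposite-strand exons overlap 6.49% of MUC3A, 2.33% of MUC5B, 1.45% of MUC12 and 4.88% of MUC15, and those partners had at most 4 counts in any sample.

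With vehicle, the lines differed in both the level and the kind of mucin. MUC1 was higher in DU-145 than in LNCaP-AI cells, by 1.87 on the log2 scale (SE 0.213, adjusted p = 0.000239, edgeR over 15628 genes), with all 6 samples above 10 counts and no overlap. MUC3A was also higher in DU-145, by 3.68 (SE 0.466, adjusted p = 0.000406). MUC16 had 19 summed counts in DU-145 and 3 in LNCaP-AI vehicle samples, a ratio of 13.0 (95% counting interval 3.83 to 68.7). MUC12 had 9 and 0, which is 6.17-fold higher in DU-145 when the LNCaP-AI sum is set to 3 counts over the group. This value is not a lower limit, as it leaves out counting error in the DU-145 sum. Set to 3 counts in each sample it would be lower. Both were below the minimum on counts, and without it their adjusted p values were 0.00250 and 0.0115 (edgeR).

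The reverse held for MUC5AC and MUC13, with 72 and 58 summed counts in LNCaP-AI and 0 in DU-145 vehicle samples. Set against 3 counts over the DU-145 group, MUC5AC was 11.7-fold and MUC13 9.40-fold higher in LNCaP-AI (adjusted p = 0.00397 and 0.00186, edgeR). These folds are not lower limits, as they leave out counting error in the LNCaP-AI sums. Against 3 counts in each sample they would be lower. MUC5B had 9 counts and MUC15 had 4 in LNCaP-AI and both had 0 in DU-145, where the counting interval of the ratio included 1. Of the 10 members, 4 were tested and called, 2 in each direction, where 65.1% of all genes were called, 30.2% higher and 35.0% lower in DU-145. MUC3A, MUC5AC and MUC13 passed the minimum through a single line. Cell line and all that differs between these cultures cannot be told apart.

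Per kilobase of annotated exon, MUC1 was the most abundant member with vehicle in both lines. The order of genes on this scale depends on the annotated exon lengths, which were 2401 bases for MUC1 and 44165 for MUC16. Most of the MUC1 repeat lies outside its annotated exons, so these orders are rough. In DU-145 vehicle samples it stood at 2.37 ± 0.268 CPM per kb (SD, n = 3). MUC3A followed at 0.211 ± 0.0267, and then MUC12 at 0.0160 ± 0.00990 and MUC16 at 0.0126 ± 0.00197, whose ranges overlapped. With DOX the order was MUC1 at 0.109 ± 0.00988, MUC3A at 0.0644 ± 0.0221, MUC16 at 0.0348 ± 0.0101 and MUC12 at 0.00997 ± 0.00439 CPM per kb. MUC1 with DOX was at 3 counts in each sample, the floor, so its place above MUC3A, at 6 to 11 counts, is not firm. In CPM, not divided by length, both MUC3A and MUC16 stood above MUC1 in every DU-145 DOX sample.

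In LNCaP-AI vehicle samples the order was MUC1 at 0.660 ± 0.0980 CPM per kb, MUC13 at 0.236 ± 0.0632 and MUC5AC at 0.0582 ± 0.0269 (SD, n = 3 each). MUC3A at 0.0161 ± 0.0137 and MUC15 at 0.0148 ± 0.0131 could not be ranked beyond their spread. With DOX, MUC13 at 0.124 ± 0.0238, MUC15 at 0.120 ± 0.0600 and MUC1 at 0.116 ± 0.0399 CPM per kb lay within each other's spread. MUC5AC came next at 0.0629 ± 0.0269. Between the lines, MUC1 with DOX reached like levels, at 0.109 and 0.116 CPM per kb, a comparison that was not tested.

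**Figure D3:**
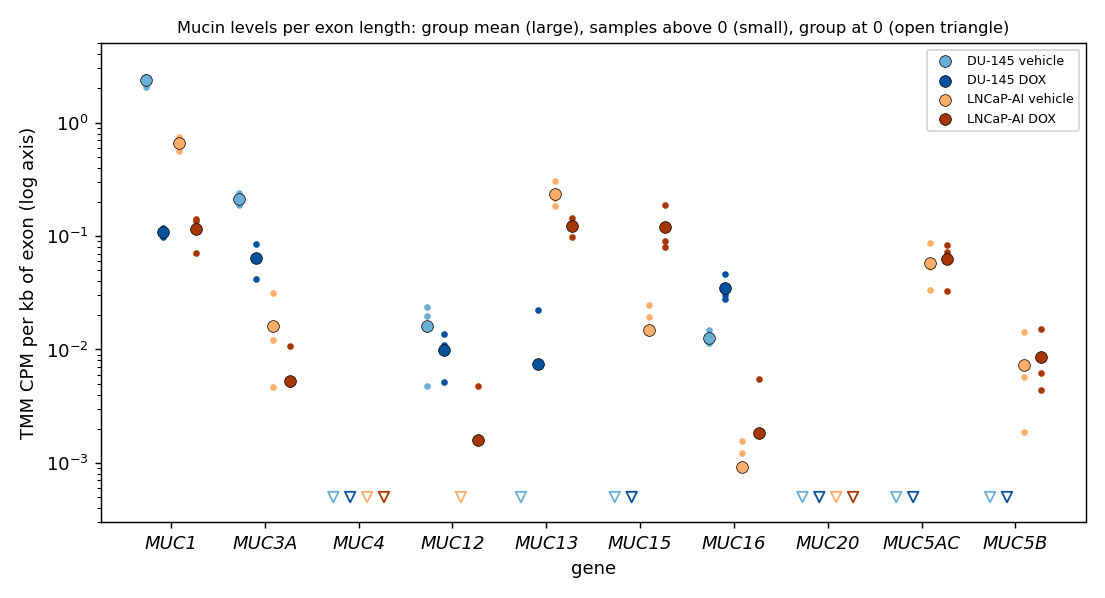
Level of the 10 mucins per kilobase of annotated exon (TMM CPM per kb, log axis) as group means of 3 samples (large points), samples above 0 (small points) and groups at 0 counts as open triangles at the foot of the axis. MUC1 leads in both vehicle groups at 2.37 and 0.660 CPM per kb, and MUC4 and MUC20 are at 0 throughout.

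The fall in MUC1 differed between the lines. On the log2 scale it was smaller in LNCaP-AI than in DU-145 by 1.95 (SE 0.405, adjusted p = 0.0241, edgeR interaction over 12 samples and 16800 genes). In CPM per kb, both lines ended near the same level, and DU-145 started higher. The DU-145 DOX samples were at 3 counts each, so the size of the fall in DU-145 rests on values at the floor. The call was lost without DU-145 DOX 2 (adjusted p = 0.0657), DU-145 DOX 3 (0.0519), LNCaP-AI DOX 1 (0.0590) or LNCaP-AI DOX 2 (0.0916). Of 5 members tested, MUC1 was the single one called, as positive, where 9.18% of all genes were called, 5.43% positive and 3.76% negative. MUC3A differed by 0.31 (SE 1.41, adjusted p = 0.948), MUC13 by -3.18 (SE 1.66, adjusted p = 0.366) and MUC16 by -0.41 (SE 1.99, adjusted p = 0.952), all with wide errors and few counts in a line. MUC5AC had 0 counts in DU-145, which leaves its difference without an estimate.

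The genes whose profile over the 12 samples lay closest to that of MUC1 were GLCE, DISC1, CYRIB, EFNB3 and WTIP, by the root mean square difference of log2 CPM after centring each gene (0.841, 0.845, 0.951, 0.991 and 0.993, among 16800 genes). GLCE, an enzyme of heparan sulfate synthesis, had 725, 555 and 737 counts with vehicle and 159, 157 and 135 with DOX in DU-145. In LNCaP-AI it had 844, 563 and 744 with vehicle and 278, 161 and 170 with DOX. It was high with vehicle and low with DOX in both lines, with differences of -2.17 and -1.67 on the log2 scale. CYRIB, a regulator of actin through RAC1, had differences of -1.93 and -1.53. DISC1, a scaffold protein, had -2.55 in DU-145. These distances describe likeness over samples that share treatment and line, and no test was applied to them. The genes were picked by this likeness to MUC1, so their fall with DOX follows from the choice.

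**Figure D4:**
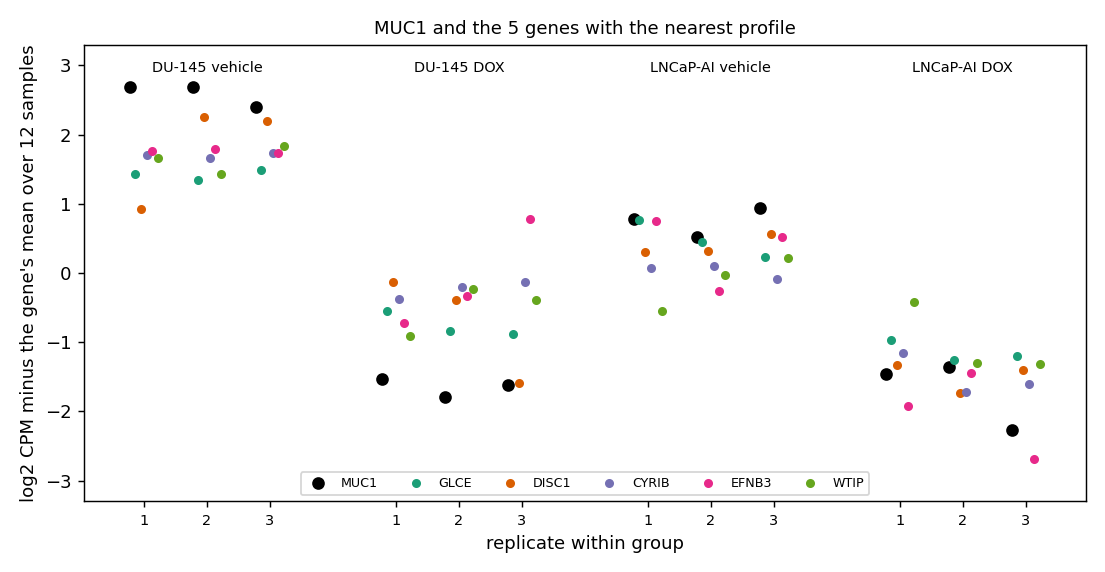
Log2 CPM minus each gene's mean over the 12 samples (vertical axis) for MUC1 (black) and the 5 genes with the nearest profile, by group and replicate (horizontal axis, points shifted for sight). MUC1 lies above 2 in DU-145 vehicle samples and below -1 in both DOX groups, and all 5 genes are on average lower with DOX in each line.

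For the other members with enough counts, the closest profiles were those of genes higher in the same line, though several had counts in both. MUC3A was closest to GRPR (0.588), the gastrin-releasing peptide receptor, then C2orf88 (0.595) and MYBL1 (0.686). MYBL1 had 2112 to 3449 counts with vehicle and 962 to 1373 with DOX in DU-145. MUC5AC was closest to KCNH5 (0.178), a potassium channel with 12 to 34 counts in LNCaP-AI and 0 in DU-145. MUC13 was closest to an unnamed gene, ENSG00000283662 (0.263), then SP9 (0.442) and ZNF649 (0.443). MUC16 was closest to ENSG00000225655 (0.454), CCN1 (0.548) and NAV3 (0.558). CCN1 and NAV3, a secreted matrix protein and a microtubule-associated protein, had log2 differences of 0.50 and 0.66 with DOX in DU-145. These genes too were picked by likeness, so a direction shared with the member follows from the choice. In LNCaP-AI, CCN1 and NAV3 went with the division of the samples. They had 1101 to 1705 and 77 to 133 counts in vehicle 2, vehicle 3 and DOX 1, against 247 to 259 and 9 to 15 in the others.

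The enzymes that put O-linked sugars on mucins moved in both directions in DU-145 cells. Of 36 such genes, 25 were tested, 7 rose and 6 fell with DOX, and their median was -0.01 beside 0.00 over all genes, so the share called was near the background of 51.5%. GALNT3, which starts O-glycan chains, rose by 1.94 (SE 0.178, adjusted p = 3.79e-08, edgeR), from 44, 21 and 47 counts to 141, 150 and 142. C1GALT1C1, the chaperone of core 1 synthase, fell by 0.87 (SE 0.105, adjusted p = 1.26e-06). Core 1 synthase itself, C1GALT1, fell by 0.37 (SE 0.0983, adjusted p = 0.00367), while ST3GAL1, which caps core 1 with sialic acid, rose by 1.08 (SE 0.125, adjusted p = 7.58e-07).

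In LNCaP-AI cells 29 of these genes were tested, 2 rose and 1 fell, with a median of -0.08 beside -0.05 over all genes and near the background of 12.7%. B3GNT6, the core 3 synthase, rose from 50, 19 and 36 counts to 228, 230 and 233, by 2.94 on the log2 scale (SE 0.358, adjusted p = 0.0124, edgeR). ST6GALNAC1, which makes the sialyl-Tn antigen, rose from 55, 32 and 61 to 130, 127 and 114, by 1.56 (SE 0.220, adjusted p = 0.0153). GALNT14 fell by 0.77 (SE 0.186, adjusted p = 0.0468). GALNT6, GALNT12, GALNT13, GALNT15 and B3GNT3 followed the division of the samples and not the treatment, GALNT6 with 286 to 494 counts in vehicle 2, vehicle 3 and DOX 1 and 0 to 2 in the rest.

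Known partners of MUC1 and the proteases that shed its ectodomain were also mixed. In DU-145 cells 23 of 25 were tested, 10 rose and 4 fell, with a median of 0.11 beside 0.00 over all genes and backgrounds of 26.3% and 25.3%. MMP14, a membrane protease that sheds MUC1, rose by 1.32 (SE 0.0775, adjusted p = 1.01e-10, edgeR), from 698, 517 and 657 counts to 1546, 1800 and 1382. In a fit of all 12 samples its adjusted p was 0.192. The shedding proteases ADAM9 and ADAM17 had 0.28 (adjusted p = 0.00476, called) and -0.09 (adjusted p = 0.291, not called). ERBB2, a receptor that MUC1-C binds, fell by 0.73 in DU-145 (SE 0.0752, adjusted p = 1.96e-07). In LNCaP-AI it rose by 0.98 (SE 0.153, adjusted p = 0.0179), the single call among 24 partners tested, where 12.7% of all genes were called, and their median was -0.12 beside -0.05. The difference in the ERBB2 effect, 1.74 on the log2 scale, passed its own test (adjusted p = 0.000463).

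Genes of mucus-secreting cells were mostly higher in LNCaP-AI than in DU-145 cells. With vehicle, 9 of 20 were tested, 8 were lower and 1 was higher in DU-145, with a median of -4.94 beside -0.06 over all genes and against backgrounds of 35.0% and 30.2%. A gene that passed the minimum through a single line had to differ, so this count is a description. SPDEF, a transcription factor of goblet cells, had 5, 3 and 4 counts in DU-145 and 1064, 519 and 912 in LNCaP-AI vehicle samples, -6.60 on the log2 scale (SE 0.319, adjusted p = 8.21e-06, edgeR). FOXA2 was the higher one, at 2.52 (SE 0.357, adjusted p = 0.000687). AGR2, a chaperone that folds mucins, had 50, 46 and 55 counts with vehicle and 186, 168 and 182 with DOX in LNCaP-AI and rose by 2.03 (SE 0.196, adjusted p = 0.0123), the single one called of 9 tested, beside a background of 12.7%. SPDEF in LNCaP-AI had 0.04 (adjusted p = 0.918). In DU-145, 2 of 5 tested rose and 0 fell, beside backgrounds of 26.3% and 25.3%, KLF4 by 1.18 (SE 0.128, adjusted p = 3.60e-07) and SLPI by 0.91 (adjusted p = 0.0478), a call that was lost in turn without each of the 6 samples.

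Of 14 further genes listed as mucins or mucin-like, 4 were tested in each comparison (CD164, OVGP1, MCAM and PODXL). Of these, MCAM is a cell adhesion molecule rather than a mucin. The secreted MUC2, MUC6, MUC7 and MUC19 had at most 6 counts in any sample. In DU-145 MCAM fell by 0.88 (SE 0.0969, adjusted p = 4.22e-07, edgeR) and PODXL by 0.62 (SE 0.0987, adjusted p = 3.14e-05). The adjusted p of MCAM was 0.758 when the 12 samples shared 1 fit. None of the 4 was called in LNCaP-AI, where their adjusted p values were 0.310 to 0.762, and where MCAM followed the division of the samples. With vehicle, PODXL and OVGP1 differed by -1.65 and -2.12 on the log2 scale, lower in DU-145 (adjusted p = 1.95e-05 and 0.000406).

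Genes next to MUC1 on chromosome 1 moved in both directions with DOX in DU-145 cells. Of 17 neighbours, 15 were tested, and in DU-145 8 rose and 4 fell, against backgrounds of 26.3% and 25.3% and with a median of 0.24 beside 0.00 over all genes. CLK2 fell by 0.81 (SE 0.136, adjusted p = 5.78e-05, edgeR), and SCAMP3 rose by 0.56 (SE 0.0902, adjusted p = 3.80e-05). In LNCaP-AI 3 rose and 0 fell, with a median of 0.17 beside -0.05 and backgrounds of 7.22% and 5.52%. EFNA1 rose there from 882, 635 and 905 counts to 1478, 1165 and 1220, by 0.87 (SE 0.120, adjusted p = 0.0147). The LNCaP-AI calls of all 6 list genes named here (B3GNT6, ST6GALNAC1, GALNT14, ERBB2, AGR2 and EFNA1) were lost without vehicle 2, vehicle 3, DOX 2 or DOX 3, with adjusted p of 0.0518 to 0.173, and all kept their direction. That of GALNT14 was also lost without vehicle 1 (adjusted p = 0.0824).

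**Figure D5:**
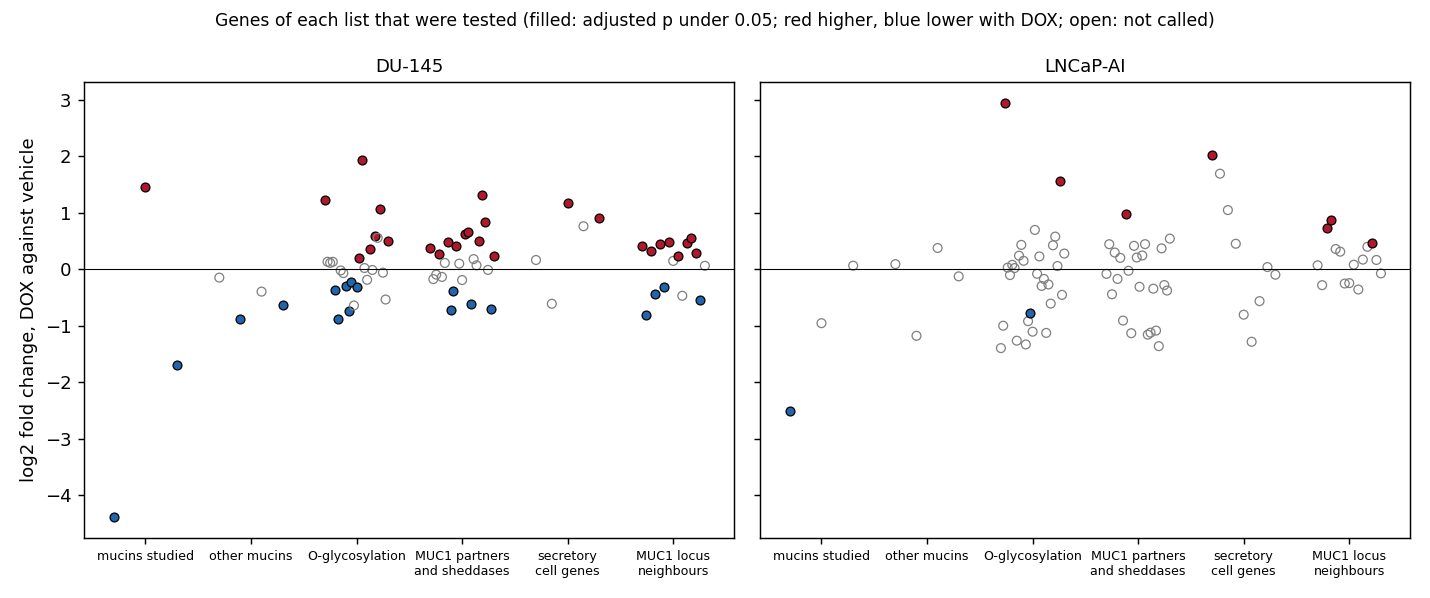
Log2 fold change, DOX against vehicle (vertical axis), of the genes tested in each list for DU-145 and LNCaP-AI (each point a gene, filled where adjusted p was under 0.05, red higher and blue lower with DOX). MUC1 is the lowest point in both panels, at -4.39 and -2.50.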

How the data were processed

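RNA was measured in 12 samples. Per the labels and methods, libraries were TruSeq stranded mRNA, reads were aligned to GRCh38 by STAR (version 2.7.0 in the submitters' processing notes), and the authors deposited unnormalized counts for each gene. The counting tool and its strand setting are not given in the sources used here. Identifiers were matched to symbols after removing the version. Total counts were 10423437 to 26961777 per sample, which limits genes with few counts. Here, edgeR 4.0.16 (TMM, glmQLFit, glmQLFTest) was applied to genes reaching 10 counts in 3 or more fitted samples, with calls at 0.05 after Benjamini-Hochberg adjustment. The 6 samples of each line, the 6 vehicle samples, and all 12 with an interaction were fitted. The standard error is the absolute log2 fold change over the square root of F. Ratios of summed counts have exact conditional 95% intervals. Levels per kb use merged exons of GENCODE release 44. The steps were tested on simulated data, with changes of a fixed size planted only in genes above a minimum level. The simulation had no division of the LNCaP-AI samples. It therefore does not speak for the LNCaP-AI calls or for mucins with few counts. The methods describe triplicate cultures. Whether these were independent is not given in the sources used here, and p-values measure only the spread between samples. Every pair of replicates differed by more than sampling noise (chi-square per degree of freedom at least 2.53). The members, the lists and the rule for naming genes (all members, the nearest profiles, and from each list up to 3 genes per direction with the smallest adjusted p, called and without overlap) were chosen with earlier results of these data known. Where the text names further list genes, they were chosen after their values were seen. Of the line markers, 6 LNCaP and 8 DU-145 genes are used, and further ones are not reported here. Alternatives were DESeq2 1.42.0, DESeq2 size factors, upper-quartile factors, no filter, 1 CPM in 3 samples, all 12 samples in 1 fit, a replicate block, the side of the LNCaP-AI samples as covariate, and leaving out each sample with the tested genes held fixed. Promoter windows were taken from RefSeq (GRCh38.p14), which matched MUC1, MUC3A, MUC4, MUC12, MUC13 and MUC16.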

Additional observations from a re-analysis of the deposited data

Results flagged for a closer look

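The effect of DOX differed between the lines, by a test of the difference itself, for MUC1 and 10 of the genes named from the lists. Values are the log2 change in LNCaP-AI minus that in DU-145, with adjusted p from edgeR's interaction test. MUC1 differed by 1.95 (adjusted p = 0.0241). PODXL differed by 0.53 (0.0319), C1GALT1C1 by 0.93 (0.00433) and GALNT3 by -2.21 (0.00108). ERBB2 differed by 1.74 (0.000463), and KLF4 by -1.95 (0.0219). Near MUC1 on chromosome 1, EFNA1 differed by 1.36 (0.00403), EFNA4 by 0.67 (0.0487) and ENTREP3 by -0.70 (0.0330). Of the line markers, VIM differed by 1.53 (9.54e-05) and KRT18 by -0.96 (0.00781). Several of these calls were not stable. Of 12 fits that each left out 1 sample, EFNA4 lost its call in 10, ENTREP3 in 8, PODXL and KLF4 in 7 each and MUC1 in 4, and the other 6 genes in 0. With a replicate block the calls of MUC1, PODXL, C1GALT1C1, KLF4, EFNA4, EFNA1, ENTREP3 and KRT18 were lost (adjusted p of 0.0793 to 0.194), and those of GALNT3, ERBB2 and VIM were kept (0.0457, 0.0461 and 0.0180). No difference changed sign. Groups of 3 samples are too small for a check of single outlying samples.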

How the results depend on the processing

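The fall in MUC1 kept its direction under every alternative run in both lines. In DU-145 its adjusted p stayed below 0.05 throughout, and so did the baseline difference. A replicate block changed the LNCaP-AI value to -2.53 with adjusted p = 0.166, 0 members were called, and 0 of 16030 genes were called by edgeR, where 2909 had an unadjusted p under 0.05 (without the block edgeR called 2043 and DESeq2 called 3517). The interaction for MUC1 under the block was 1.92 (adjusted p = 0.140) with 0 members and 52 of 16800 genes called, against 1543. Same-numbered LNCaP-AI samples deviated in opposite directions (correlations of -0.936, -0.807 and -0.829) and those of DU-145 hardly together (0.119, -0.0859 and 0.0697), so the numbers do not pair the samples. The block changed no other call of a member. Without a filter on low counts the interaction of MUC1 was 1.92 (adjusted p = 0.0652, 0 members, 884 genes called). The side of the LNCaP-AI samples as a covariate gave 2 members (MUC1 and MUC13) and 6271 genes, and all 12 samples in 1 fit gave 4000 genes in LNCaP-AI and 4260 in DU-145, against 7033. At 1 CPM in 3 samples, 2 members were called at baseline, because MUC5AC and MUC13 were no longer tested. Leaving out single samples, MUC1 lay between -2.65 and -2.22 in LNCaP-AI (0 to 1 members and 0 to 2903 genes called, 0 without vehicle 2 or vehicle 3, where 3965 and 3871 genes had an unadjusted p under 0.05) and between 1.80 and 2.19 for the interaction (0 to 1 members and 725 to 3375 genes called). Values not called changed sign: MUC5AC in LNCaP-AI (-0.31 with the side as covariate, and -0.20 to 0.47 leaving out samples), and the interactions of MUC3A (-0.71 to 1.11) and MUC16 (-4.13 to 0.20). The cause of these changes was not tested. Of the named list genes, 154 of 1128 refits lost a call and 0 reversed. Low counts limit every mucin but MUC1 with vehicle, and values at 3 counts or fewer are at the floor.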
